A study of Homo sapiens with 12 samples.

Results

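The mRNAs of 10 translation genes were followed in oral squamous cell carcinoma (OSCC) cells with and without rapamycin. The genes were chosen by symbol and matched to Ensembl identifiers, and the rule uses no measured value. They were the elongation factor genes EEF1A1, EEF1B2, EEF1D, EEF1G and EEF2, the translationally controlled tumour protein gene TPT1, the poly(A)-binding protein gene PABPC1, and the initiation factor eIF3 subunit genes EIF3E, EIF3F and EIF3H. They are 10 of the 58302 genes in the count table, and 9 of them had enough counts to be among the 15826 genes tested. EEF1G (ENSG00000254772) was listed at 0 counts in all 4 libraries.

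RNA-seq comprised 2 libraries of cells given rapamycin at 100 nM and 2 libraries of control cells, numbered 1 and 2 in each treatment. MeRIP-seq enriches RNA fragments that carry N6-methyladenosine (m6A) with an antibody and compares them with the input RNA. Its 8 libraries make 1 pair, antibody fraction and input, for untreated HSC3, untreated CAL33, and each of these lines after 3 days of 100 nM rapamycin. HSC3 and CAL33 are established human OSCC cell lines. The labels of the RNA-seq libraries place both rapamycin libraries in HSC3 and both control libraries in CAL33, whereas in MeRIP-seq number 1 is HSC3 and number 2 is CAL33 in each treatment.

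By the RNA-seq labels, cell line and treatment therefore cannot be told apart. The levels themselves were closer between libraries of the same number (r of log2 levels across genes 0.957 and 0.971) than between libraries of different numbers (0.826 to 0.871). The summed level of 8 squamous epithelium markers also went with the number. It was 904 and 1082 CPM in the libraries numbered 1 against 3325 and 4764 CPM in those numbered 2. In rapamycin replicate 2 the sum came mainly from KRT17 (2119 CPM). In control replicate 2 it came mainly from KRT5 and KRT17 (1703 and 1346 CPM). KRT6A had 5.4 CPM in rapamycin replicate 2 and 374 CPM in control replicate 2. Not all markers followed the sum. KRT5, KRT14, KRT17, KRT6A and TP63 were higher in number 2 by edgeR, whereas CDH1 was lower (log2 difference -0.67, adjusted p = 0.0403), and EPCAM (-0.59) and SFN (0.11) did not pass. The 10 markers of immune, endothelial and stromal cells summed to between 23.9 and 71.9 CPM, and PTPRC and DCN were among those at 0 throughout. Most of this sum came from CDH5 and COL1A1. CDH5 went with the number, at 41.6 and 25.6 CPM in rapamycin and control replicate 2. In rapamycin and control replicate 1 CDH5 had 0.68 and 0.88 CPM. COL1A1 had between 8.79 and 29.3 CPM. With rapamycin 3 of the 8 squamous markers fell in the paired test, KRT5 (log2 difference -2.43), KRT6A (-5.46) and KRT14. The other 5 did not pass and ranged from -0.91 for SFN to 0.38 for KRT17. Without pairing none of the 8 passed, with an adjusted p of 0.99968 by edgeR for KRT5, KRT6A and KRT14. The part of these marker differences in the results on translation genes was not tested. Among genes with an m6A peak in both HSC3 lists and in no CAL33 list, 175 of 357 had both number 1 libraries above both number 2 libraries and 58 had the reverse, whereas for peaks in CAL33 alone the counts were 36 and 90 of 189. Over all 15826 tested genes the counts were 4778 and 4553. Rapamycin and control were accordingly compared within numbers. Without pairing edgeR called 0 of the 15826 tested genes, so every edgeR call between rapamycin and control rests on the pairing. DESeq2 was fitted with pairing only. Nothing in the labels says that the libraries came from separate cultures, so the p-values measure the spread between these libraries only.

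Protein synthesis by the ribosome proceeds codon by codon. The GTPase eEF1A, encoded by EEF1A1, brings aminoacyl-tRNA to the ribosome, the eEF1B complex of the EEF1B2, EEF1D and EEF1G products recharges eEF1A with GTP, and eEF2 moves the ribosome along the mRNA. Most of the mRNAs for these factors, for ribosomal proteins, for PABPC1 and for TPT1 belong to the TOP class, which begins at the cap with a C followed by a run of pyrimidines (a 5′ terminal oligopyrimidine tract). The kinase complex mTORC1 controls the translation of TOP mRNAs, in large part through the protein LARP1, which binds the cap and the tract. Rapamycin inhibits mTORC1. RNA-seq measures the amount of an mRNA and not its translation.

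The transcript starts were read from a table of RefSeq starts (GRCh38.p14), in which 6 of the genes were matched, with 7 starts. Each line gives 10 bases before the annotated start and 20 from the start onwards, on the sense strand, with capitals for the unbroken run of C and T that begins with a C at the start itself. They are shown because this run is the feature by which TOP mRNAs are defined.
EEF1A1 (chr6:73521013-73521042, minus strand): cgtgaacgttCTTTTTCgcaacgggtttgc
EEF1B2, start at 206159895 (chr2:206159885-206159914, plus strand): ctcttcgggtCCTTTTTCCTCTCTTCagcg
EEF1B2, start at 206159609 (chr2:206159599-206159628, plus strand): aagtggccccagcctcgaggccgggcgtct
EEF2 (chr19:3985444-3985473, minus strand): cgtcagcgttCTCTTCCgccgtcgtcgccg
TPT1 (chr13:45341164-45341193, minus strand): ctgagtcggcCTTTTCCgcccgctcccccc
EIF3F (chr11:7987327-7987356, plus strand): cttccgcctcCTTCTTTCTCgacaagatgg
EEF1G (chr11:62573872-62573901, minus strand): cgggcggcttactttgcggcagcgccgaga

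The run was 7 bases long in EEF1A1, EEF2 and TPT1, 10 in EIF3F and 16 at the second start of EEF1B2. The other EEF1B2 start and the EEF1G start had none, and in EEF1G 4 pyrimidines followed from the second base. A run of at least 5 bases of this kind was found at 1429 of the 35116 annotated starts (4.07%), at 47 of 78 starts of cytosolic ribosomal protein genes (60.3%), and at 3 of 7 starts of the other eIF3 subunit genes. A run of these letters describes the annotated start, and the start used in these cells was not measured.

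The share of counts from these genes was not the same in the 4 libraries. Together they took 1.596% of all counts in rapamycin replicate 1 (95% Wilson interval 1.590% to 1.602%) and 2.200% in rapamycin replicate 2 (2.193% to 2.207%). In control replicates 1 and 2 they took 1.380% (1.375% to 1.385%) and 1.395% (1.390% to 1.400%). The intervals cover counting error only, and not the spread between libraries. EEF1A1 alone held between 40.7% and 51.6% of these counts. Rapamycin replicate 2 was the highest library for 8 of the 9 genes tested, and for EEF1B2 it was the lowest. The share of all tested genes with their highest level in that library is not given here. None of the 9 passed the paired test at an adjusted p of 0.05 (quasi-likelihood test in edgeR, Benjamini-Hochberg adjustment over all genes), where 8.15% of all genes passed. The median log2 difference of the 9 genes was 0.37, compared with 0.05 for all genes. It was 0.05 in pair 1 and 0.70 in pair 2, whereas the median of all genes was 0.01 and 0.06.

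**Figure D1:**
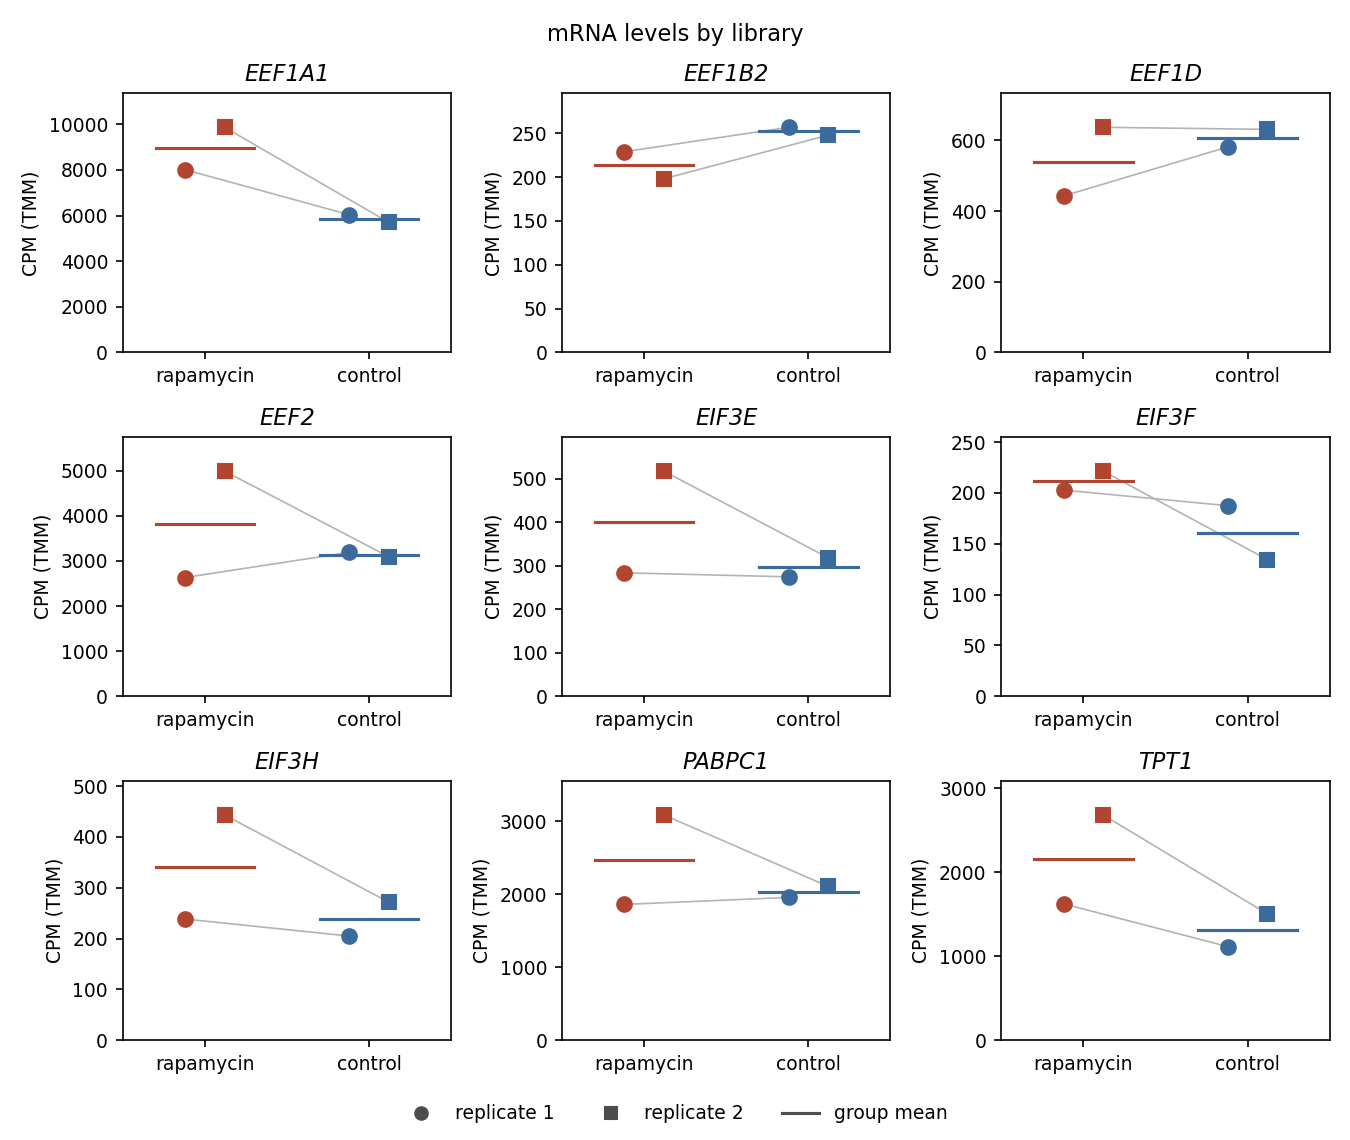
mRNA levels of the 9 genes with counts, in CPM scaled by TMM on linear axes that start at 0, in the 2 rapamycin and 2 control libraries. Circles are replicate 1, squares are replicate 2, horizontal lines are group means and grey lines join libraries of the same number, and the rapamycin square is the top point in every panel except that of EEF1B2.

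EEF1A1 (ENSG00000156508) had 8008 and 9866 CPM in rapamycin replicates 1 and 2, and 6032 and 5700 CPM in control replicates 1 and 2 (CPM give a gene's counts relative to the total of its library, after TMM scaling). Both rapamycin libraries were above both control libraries. The group means were 8937 ± 1314 and 5866 ± 235 CPM (SD, n = 2 each). The log2 difference was 0.60 (SE 0.27), or 1.52-fold, with a 95% interval from 0.042 to 1.16. Its unadjusted edgeR p was 0.0361 and its adjusted p was 0.176, so the difference did not pass the test after adjustment. It was 0.41 in pair 1 and 0.79 in pair 2. Processed pseudogenes of EEF1A1, whose sequence is nearly that of the mRNA, held between 19.1% and 21.9% as many counts as EEF1A1 itself. With their counts added to the gene the log2 difference of EEF1A1 was 0.59 (adjusted p = 0.183 by edgeR).

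The fitted differences of both eEF1B subunits with counts were below 0, and neither passed the test. EEF1B2 (ENSG00000114942), the subunit that exchanges GDP for GTP on eEF1A, had 229 and 198 CPM in the rapamycin libraries and 257 and 248 CPM in the controls. Both rapamycin libraries were below both controls, and EEF1B2 was the one gene of the 9 that was lower in each pair. Its log2 difference was -0.24 (SE 0.25, 95% interval -0.76 to 0.28, adjusted p = 0.599 by edgeR). EEF1D (ENSG00000104529), the subunit with a second exchange activity, had 443 and 637 CPM with rapamycin and 581 and 631 CPM without. Its rapamycin libraries were the lowest and the highest of the 4, and its log2 difference was -0.39 in pair 1 and 0.014 in pair 2 (fitted -0.19, SE 0.26, adjusted p = 0.704 by edgeR). EEF1G, which holds the complex together, had no counts in any library, and a count of 0 allows up to between 0.126 and 0.162 CPM (3 counts per library, counting error only). This limit covers counts assigned to the EEF1G identifier, and says nothing of reads that the counting may have left unassigned, for example where annotated genes overlap. Its named pseudogenes had at most 5 counts each in a library, and the cause of the 0 was not tested.

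EEF2 (ENSG00000167658) had 2632 and 4990 CPM in the rapamycin libraries and 3190 and 3091 CPM in the controls. The controls were nearly equal, and the rapamycin libraries lay on either side of them. The log2 difference was -0.28 in pair 1 and 0.69 in pair 2, and the paired fit gave 0.21 (SE 0.29, 95% interval -0.38 to 0.79, adjusted p = 0.708 by edgeR). Rapamycin replicate 2 was 1.56-fold above the next highest library for EEF2. EEF2K, the kinase that phosphorylates and inhibits eEF2 and that lies downstream of mTORC1, had 28.4 and 81.5 CPM with rapamycin and 30.6 and 87.5 CPM without. EEF2K differed between numbers, with a log2 difference of 1.52 (adjusted p = 6.78e-05 by edgeR). Its difference between treatments was -0.10 (SE 0.27, adjusted p = 0.860 by edgeR) and did not pass.

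TPT1 (ENSG00000133112), a small abundant cytoplasmic protein long known as a TOP mRNA product, had 1624 and 2685 CPM with rapamycin and 1114 and 1505 CPM without. Both rapamycin libraries were above both controls, by a narrow margin between rapamycin replicate 1 and control replicate 2. The group means were 2154 ± 750 and 1310 ± 277 CPM (SD, n = 2 each). The log2 difference was 0.69 (SE 0.26, 95% interval 0.15 to 1.23), or 1.61-fold, and it was 0.54 in pair 1 and 0.83 in pair 2. TPT1 had an unadjusted edgeR p of 0.0149 and an adjusted p of 0.106, which missed the threshold. DESeq2 with the same pairing gave a log2 difference of 0.70 for TPT1 with an adjusted p of 0.0381, which passed. In that fit 6.74% of the 12144 genes with an adjusted p passed.

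PABPC1 (ENSG00000070756), the cytoplasmic protein that coats poly(A) tails and contacts the cap-binding complex, had 1858 and 3085 CPM in the rapamycin libraries and 1954 and 2106 CPM in the controls. Rapamycin replicate 2 was 1.46-fold above the next library, and the other 3 libraries lay close together. The log2 difference was -0.07 in pair 1 and 0.55 in pair 2, and the paired fit gave 0.24 (SE 0.27, adjusted p = 0.637 by edgeR).

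The 3 eIF3 subunits were each higher with rapamycin in both pairs, and none passed the test. eIF3 is the large initiation complex that joins the small ribosomal subunit to mRNA, and EIF3F and EIF3H encode its paired MPN-domain subunits. EIF3E (ENSG00000104408) had 284 and 518 CPM with rapamycin and 275 and 319 CPM without, with a log2 difference of 0.05 in pair 1 and 0.70 in pair 2. EIF3F (ENSG00000175390) had 203 and 222 CPM with rapamycin against 187 and 135 CPM without, so that both rapamycin libraries were above both controls. EIF3H (ENSG00000147677) had 238 and 444 CPM with rapamycin and 205 and 272 CPM without. For EIF3E and EIF3H the rapamycin library numbered 1 lay between the controls, and the rapamycin library numbered 2 stood above all others. The fitted log2 differences were 0.37, 0.42 and 0.46 for EIF3E, EIF3F and EIF3H (SE 0.26 each, adjusted p = 0.408, 0.346 and 0.281 by edgeR).

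**Figure D2:**
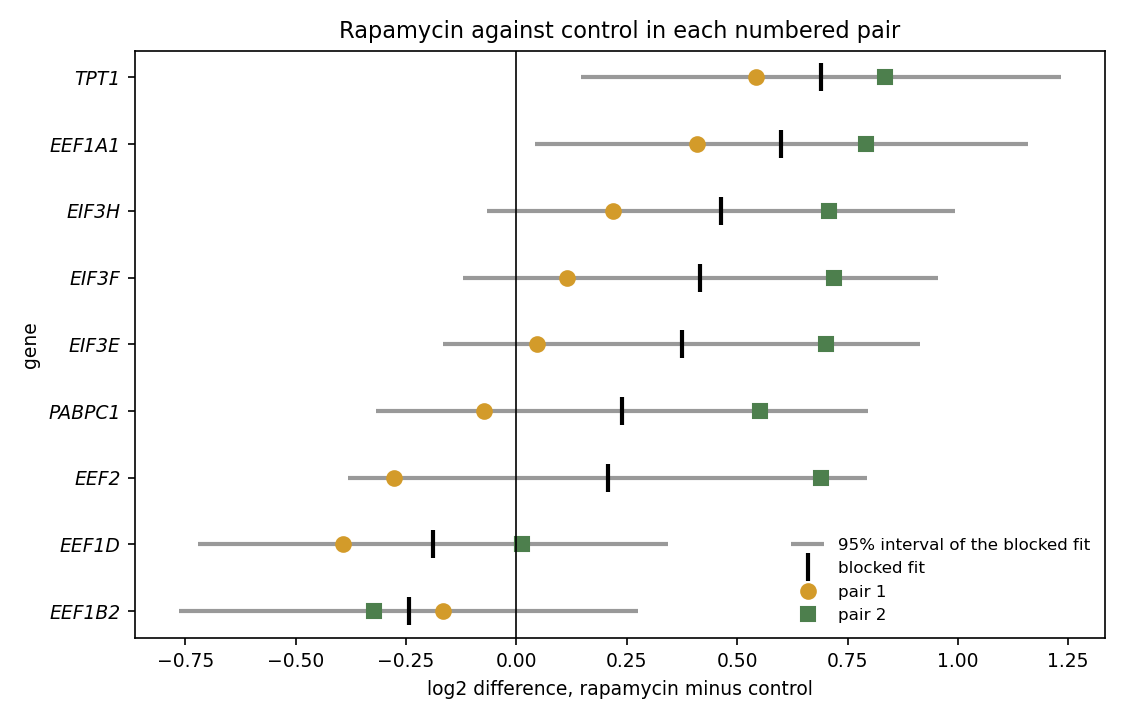
Log2 difference of rapamycin minus control for each gene, in pair 1 (circles) and pair 2 (squares), with the value of the paired fit (bar) and its 95% interval (grey line). In pair 2 the differences of 7 genes lie between 0.55 and 0.83, and in pair 1 every gene lies between -0.39 and 0.54.

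By direction, 5 of the 9 genes were higher with rapamycin in both pairs (EEF1A1, TPT1, EIF3E, EIF3F and EIF3H), where 34.6% of all genes were. One gene, EEF1B2, was lower in both, where 31.8% of all genes were. EEF1D, EEF2 and PABPC1 went in opposite directions, and 5320 of all 15826 tested genes were likewise neither higher in both pairs nor lower in both. Both rapamycin libraries were above both controls for 3 genes, EEF1A1, TPT1 and EIF3F, where 15.0% of all genes were, and below both for EEF1B2, where 16.5% were. An unadjusted p under 0.05 was reached by EEF1A1 and TPT1, where 23.6% of all genes reached it. Without pairing, the fit across all genes called 0 genes by edgeR (446 at an unadjusted p under 0.05), and the adjusted p of each of the 9 genes was 0.99968. Each pair is 1 library against 1, and the paired fit has 1 residual degree of freedom for each gene. Its standard errors, intervals and p-values draw on variation estimated over all genes, and not on each gene's own spread alone. Pair 2 minus pair 1 was -0.16 for EEF1B2 and 0.97 for EEF2, while their SE were 0.25 and 0.29. In simulated counts the paired fit called 42 of 200 genes changed 2-fold. Those genes were drawn over a wide range of levels and were the only ones changed. The simulation therefore does not give the share that would be called at the levels and differences of the 9 genes. A difference that did not pass is not shown to be absent.

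The genes that moved in a pattern closest to the average of the 9 were HADHB, RPL7A, BCL9L, RPL34 and PRPSAP1. Likeness was the distance between mean-centred log2 CPM over the 4 libraries, over 6124 candidate genes whose mean level was 5 log2 CPM or more. The distances ran from 0.057 for HADHB to 0.098 for PRPSAP1. Among the 9 genes PABPC1 was the closest to their own average at 0.143 and EEF1B2 the farthest at 0.755. The 5 genes were picked as the smallest distances of the 6124 candidates, and the 9 genes were not, so these distances are not comparable. The average itself was -0.13 and 0.41 in rapamycin replicates 1 and 2 and -0.18 and -0.11 in control replicates 1 and 2. RPL7A and RPL34 encode proteins of the large ribosomal subunit, and HADHB encodes a subunit of the mitochondrial trifunctional protein of fatty acid oxidation.

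The other genes of the translation machinery were described by 8 lists of 143 genes, of which 139 were tested. With rapamycin 1 of the 139 rose and 4 fell in the paired fit (0.719% and 2.88%, against 4.651% and 3.501% of all genes), and without pairing 0 of the 139 passed by edgeR. The cytosolic ribosomal proteins, the largest group of TOP mRNAs, had 0 of 79 genes called in either direction by edgeR (4 at an unadjusted p under 0.05), although with DESeq2 RPL3 passed (adjusted p = 0.0399). Their median log2 difference was 0.21, and it was 0.03 in pair 1 and 0.40 in pair 2. Of the 79, 38 were higher with rapamycin in both pairs and 6 were lower in both, where 34.6% and 31.8% of all genes were. The 4 with the smallest p were RPL3 (0.65), RPS18 (0.58), RPL13A (0.62) and RPL13 (0.56), given as log2 differences, with adjusted p between 0.123 and 0.192 by edgeR. The 6 other TOP mRNAs that do not encode ribosomal proteins had a median of -0.15 (-0.41 in pair 1 and 0.07 in pair 2), and 0 of them passed by edgeR. One of them, NPM1, a nucleolar chaperone, had -0.73 (unadjusted p = 0.00946) and passed with DESeq2 (adjusted p = 0.0257).

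Genes were also grouped by their annotated start alone. The 829 tested genes with a run of at least 5 pyrimidines at a start had a median log2 difference of 0.09, and the 10572 tested genes with annotated starts but no such run had 0.02. In pair 1 the medians were -0.01 and -0.01, and in pair 2 they were 0.22 and 0.01. Of the 829 genes 39 rose and 24 fell, and of the 10572 genes 469 rose and 411 fell, in the paired fit by edgeR. Without pairing 0 of all tested genes passed. Higher medians for genes with a pyrimidine start, for ribosomal proteins and for the 9 genes were thus found in pair 2, and the part of rapamycin replicate 2 in them was not tested. These groups overlap. Such a run is at 47 of 78 starts of ribosomal protein genes and in EEF1A1, EEF1B2, EEF2, TPT1 and EIF3F. The 6 other TOP mRNAs had a median of 0.07 in pair 2.

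**Figure D3:**
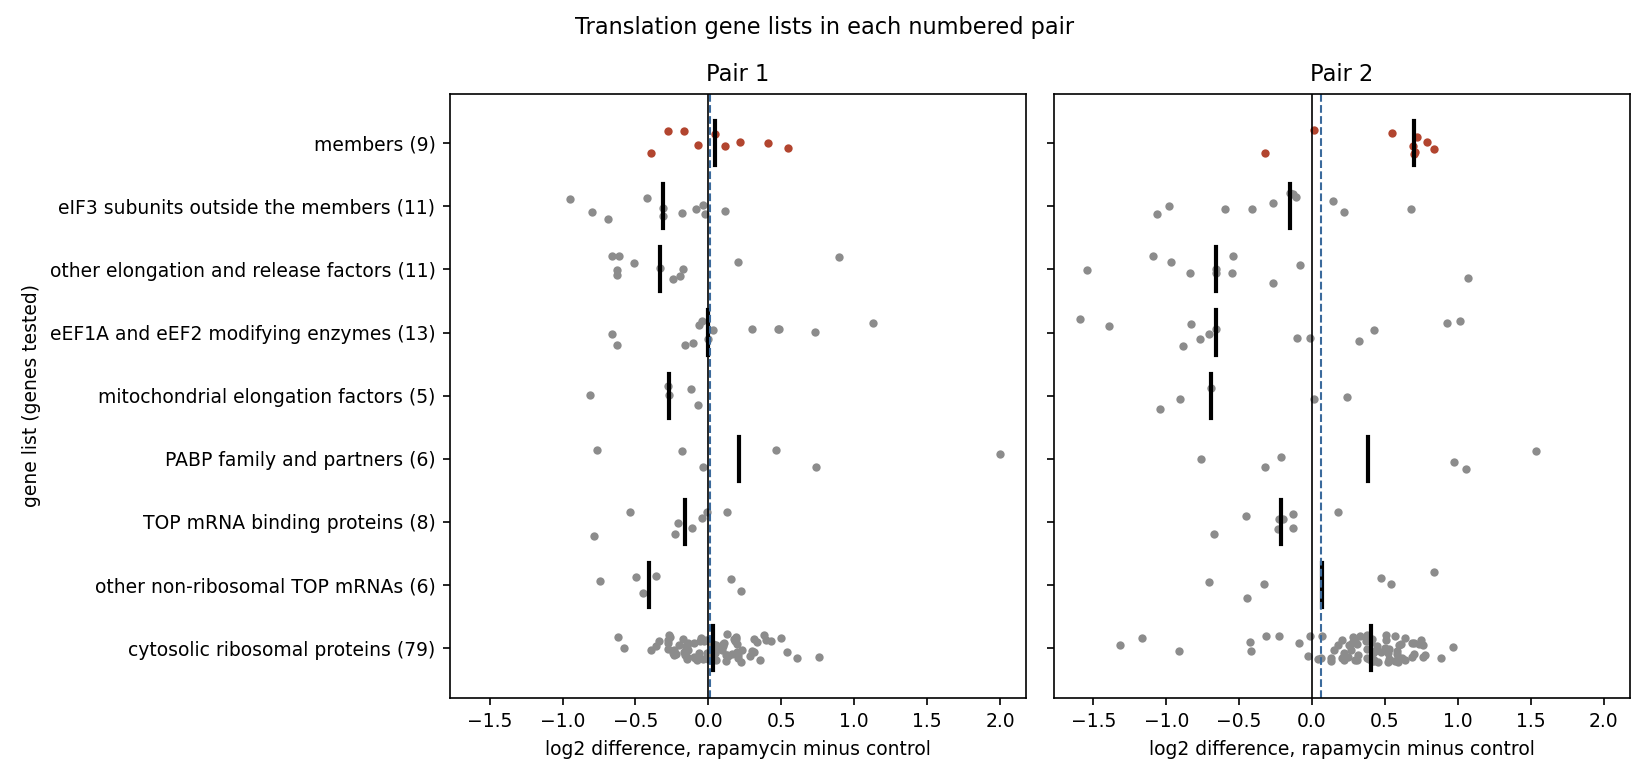
Log2 difference of rapamycin minus control in pair 1 (left) and pair 2 (right) for the genes described here (top row) and for 8 lists of translation genes, with 1 point per gene, a bar at each list's median and a dashed line at the median of all tested genes. The medians of the top row and of the ribosomal proteins are 0.05 and 0.03 in pair 1, and 0.70 and 0.40 in pair 2.

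The list of other elongation and release factors had 11 tested genes, among them VARS1 and EEF1E1, which belong to tRNA charging instead. Of the 11, 9 were lower with rapamycin in both pairs (31.8% of all genes), VARS1 and EEF1E1 included. The median log2 difference of the 11 was -0.50, and 1 gene fell. That gene was ABCE1, which splits ribosomes after termination, with 100.2 and 53.8 CPM in the rapamycin libraries and 158.6 and 156.7 CPM in the controls. The log2 difference of ABCE1 was -1.10 (SE 0.27, adjusted p = 0.0137 by edgeR with pairing and 0.99968 without pairing). EIF5A, which helps the ribosome through difficult stretches such as runs of proline, had -0.80 and narrowly missed the threshold (adjusted p = 0.0568 by edgeR), though it passed with DESeq2 (0.0252). EEF1A2, the second eEF1A gene, had 0.64 (adjusted p = 0.148 by edgeR).

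Of the 11 other eIF3 subunits tested, 0 were higher with rapamycin in both pairs and 7 were lower in both (34.6% and 31.8% of all genes), with a median log2 difference of -0.16. EIF3L, at 0.33 (-0.02 in pair 1 and 0.68 in pair 2), was close to the values of EIF3E. One fell: EIF3B, a scaffold subunit of eIF3, had 369 and 373 CPM with rapamycin and 714 and 779 CPM without, a log2 difference of -1.01 (SE 0.26, adjusted p = 0.0164 by edgeR with pairing and 0.99968 without pairing). The 2 rapamycin libraries of EIF3B lay far below both controls and close to each other. EIF3A, the largest scaffold subunit, had -0.64 (adjusted p = 0.119 by edgeR).

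Among 13 tested enzymes that modify eEF1A or eEF2, 1 fell. This was DPH2, which takes part in the first step of diphthamide synthesis on eEF2, with 54.8 and 22.5 CPM with rapamycin and 86.6 and 68.0 CPM without. The log2 difference of DPH2 was -1.12 (SE 0.29, adjusted p = 0.0181 by edgeR with pairing and 0.99968 without pairing), -0.66 in pair 1 and -1.59 in pair 2. Among the 5 mitochondrial elongation factors 1 fell, GFM1, which moves the mitochondrial ribosome along its mRNA. GFM1 had 63.2 and 77.0 CPM with rapamycin and 111.0 and 158.3 CPM without, a log2 difference of -0.93 (SE 0.26, adjusted p = 0.0249 by edgeR with pairing and 0.99968 without pairing).

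Of 6 tested relatives and partners of PABPC1, 1 rose. PABPC1L, a relative of PABPC1 known mainly from oocytes, had 143.7 and 78.2 CPM with rapamycin and 35.9 and 37.6 CPM without. Both rapamycin libraries of PABPC1L were above 2-fold of either control, and its log2 difference was 1.53 (SE 0.29, adjusted p = 0.00224 by edgeR with pairing and 0.99968 without pairing). PABPC4, another cytoplasmic poly(A)-binding protein, had -0.76 in the fit, -0.77 in pair 1 and -0.76 in pair 2 (adjusted p = 0.0611 by edgeR, 0.0244 by DESeq2). The 8 proteins that bind TOP mRNAs gave 0 calls by edgeR (0 at an unadjusted p under 0.05, 0 by DESeq2), with a median of -0.19. LARP1 had 370 and 455 CPM with rapamycin and 434 and 522 CPM without, a log2 difference of -0.21 (SE 0.25, adjusted p = 0.657 by edgeR).

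The libraries numbered 2 were also compared with those numbered 1, with treatment in the model. In this comparison 37.3% of all genes passed, and 1 of the 9 genes did. EIF3H was higher in number 2, with a log2 difference of 0.65 (SE 0.26, adjusted p = 0.0491 by edgeR). The call was lost under 6 alternatives, in which the adjusted p of EIF3H ran from 0.0515 to 0.247. Both libraries numbered 2 were above both numbered 1 for EEF1D, PABPC1, EIF3E and EIF3H, where 28.8% of all genes were. The log2 difference between numbers was 0.58 for TPT1 (SE 0.26, adjusted p = 0.0870), 0.54 for EIF3E (adjusted p = 0.110), 0.44 for EEF2 (adjusted p = 0.244) and 0.42 for PABPC1 (adjusted p = 0.239), all by edgeR. For EEF1A1 it was 0.11, with a 95% interval from -0.45 to 0.67. Each treatment taken alone gives a difference of 1 library and 1, with no test. Within rapamycin and within control, number 2 minus number 1 was 0.92 and -0.05 for EEF2, 0.73 and 0.11 for PABPC1, 0.87 and 0.21 for EIF3E, 0.90 and 0.41 for EIF3H, and 0.73 and 0.43 for TPT1. For EEF1A1 these values were 0.30 and -0.08, and for EIF3F they were 0.13 and -0.48.

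m6A peaks were listed on 2 of the genes, EEF2 and TPT1, with 3 peaks each. A peak on at least 1 of the 4 lists was found for 2 of the 9 tested genes (22.2%), for 9 of 79 ribosomal protein genes (11.4%) and for 5604 of all 15826 tested genes (35.4%). By list, a peak was present for 1 of the 9 in the HSC3 control list (17.6% of all genes) and for 2 in the HSC3 rapamycin list (17.5%). For CAL33 it was 1 of the 9 in the control list (16.1%) and 2 in the rapamycin list (14.2%). Each list came from 1 pair of libraries without a replicate, so no test within a cell line was possible. A model of cell line plus treatment was not fitted, since neither gene had a peak in all 4 lists. The depth behind the peaks is unknown. The authors' fold enrichment of pulled-down RNA over input is set here beside its percentile rank within the list it came from. Coordinates are those of the deposited lists (hg38).

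EEF2 peaks lay in the annotated 3′ UTR on the minus strand. In HSC3 control cells the peak covered chr19:3976384-3976563 with a fold enrichment of 3.63, at percentile 4.63 of its list. In HSC3 rapamycin cells it covered chr19:3976324-3976652 with a fold enrichment of 27.2, at percentile 42.8. In CAL33 rapamycin cells it covered chr19:3976354-3976593 with a fold enrichment of 2.21, at percentile 1.23, and no EEF2 peak was listed in CAL33 control cells. The HSC3 control peak lay wholly inside both others, so the 3 lists marked the same stretch of 180 bases. The enrichment in HSC3 was higher in the rapamycin list than in the control list, and in CAL33 rapamycin cells it was among the lowest of the list.

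TPT1 peaks were also annotated as 3′ UTR, on the minus strand of chromosome 13. The peak of HSC3 rapamycin cells covered chr13:45336851-45337419 with a fold enrichment of 3.20, at percentile 2.66, and none was listed in HSC3 control cells. The peak of CAL33 control cells covered chr13:45336940-45337329 with a fold enrichment of 5.25, at percentile 7.32. That of CAL33 rapamycin cells covered chr13:45336821-45337389 with a fold enrichment of 8.83, at percentile 14.9. The 390 bases of the CAL33 control peak were shared by all 3 lists. The small nucleolar RNA gene SNORA31, hosted by TPT1, begins 61 bases beyond the highest end of these peaks. All 6 peaks of EEF2 and TPT1 had a fold enrichment below the median of their lists, which was 33.6 without and 33.3 with rapamycin in HSC3, and 42.6 without and 35.9 with rapamycin in CAL33.

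**Figure D4:**
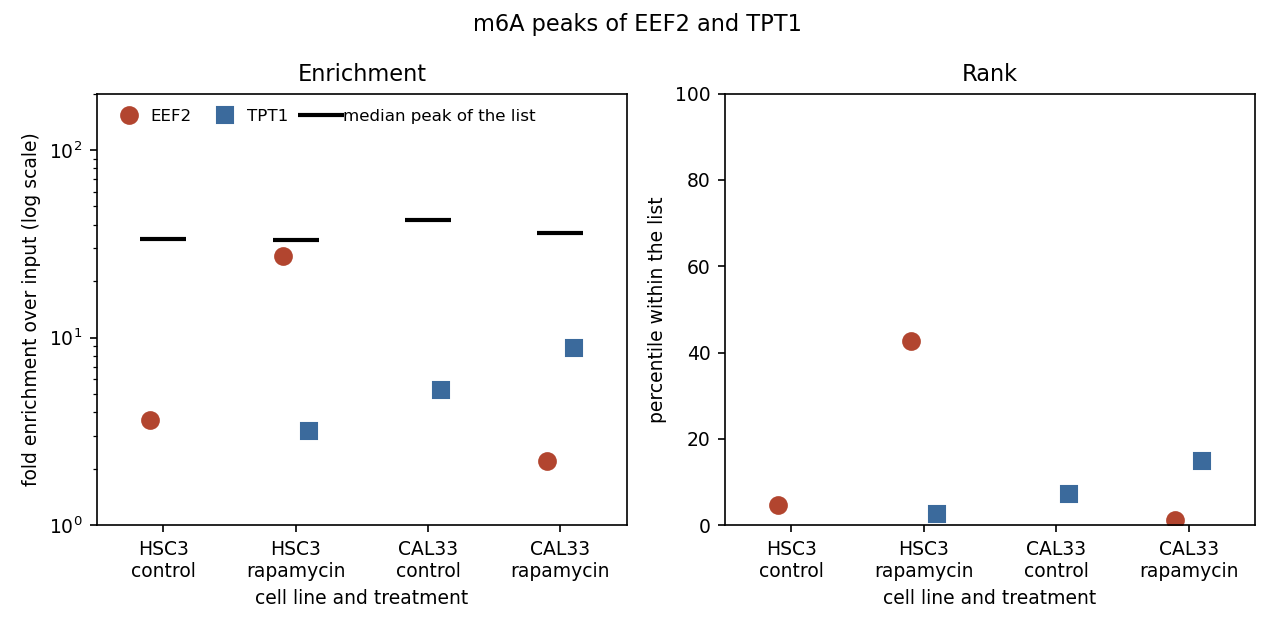
Fold enrichment over input on a log axis (left) and percentile within its list (right) for each m6A peak of EEF2 (circles) and TPT1 (squares) in the 4 peak lists, with the median fold of each list as a bar; a missing point means that no peak was listed. Every point lies below its list's bar, and the EEF2 peak of HSC3 rapamycin cells is the closest to it, at 27.2 against 33.3.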

How the data were processed

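RNA-seq was performed on 4 libraries and MeRIP-seq on 8. The authors deposited raw HTSeq counts per Ensembl gene, without normalization, and 1 peak list per MeRIP-seq pair with a fold enrichment (a ratio over input) and a log10 false discovery rate, which counts here as another deposited value. The submitters' processing notes name hg38, cutadapt 2.5, HISAT2 2.1.0, featureCounts 1.6.3 and HOMER 4.10.4 without roles. The RNA kit was stranded, while the strand setting of counting, the annotation version and the peak caller are not given in the sources used here. Symbols were matched for 57532 of 58302 identifiers (98.7%). Totals were 18492273 to 23763098 counts, of which mitochondrial genes took 5.71% to 7.94%.

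The counts were fitted with edgeR 4.0.16 under R 4.3.3, using filterByExpr, TMM, and the robust quasi-likelihood test with treatment and replicate number as terms, adjusted over all 15826 genes at 0.05. DESeq2 1.42.0, Python 3.11.15, pandas 2.3.3, scipy 1.17.1 and matplotlib 3.10.9 were also used. The pairing was taken from the numbers in the titles. It was checked by the correlation of the number differences in rapamycin and control libraries (r = 0.88 over 15826 genes, which are not independent), whereas the line named in each RNA-seq label goes against it. In simulated counts with 200 genes changed 2-fold, the blocked fit called 42, together with 9 unchanged ones of the 15493 tested, and the unblocked fit called 0. With nothing changed, the blocked fit called 9 of 15543.

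The genes, lists, design and alternatives were chosen with earlier results of these data known. All 10 genes were described, with EEF2K, LARP1 and up to 4 passing genes per list and direction, and the 5 genes of closest profile. Other genes, those of smallest p or called by DESeq2 alone, were named after their values were seen. Levels of different genes were not compared, because transcript lengths were not used. Alternatives were DESeq2, no block, other scalings and count filters, each library left out, and peaks by false discovery rate, fold and overlap. Adding pseudogene counts to the gene was chosen after seeing the data. Shares of counts cover counting error only.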

Additional observations from a re-analysis of the deposited data

Results flagged for a closer look

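EEF1D, EEF2 and PABPC1 were marked because pair 1 and pair 2 moved in opposite directions with rapamycin. They are 3 of the 9 genes, and 5320 of all 15826 tested genes were likewise neither higher in both pairs nor lower in both. The log2 difference of rapamycin minus control was -0.39 in pair 1 and 0.014 in pair 2 for EEF1D, -0.28 and 0.69 for EEF2, and -0.072 and 0.551 for PABPC1. Each pair holds 1 library per treatment, so the difference between the pairs was not tested. For these 3 genes the highest of the 4 libraries was rapamycin replicate 2 and the lowest was rapamycin replicate 1.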

How the results depend on the processing

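None of the 9 genes changed direction between rapamycin and control under the 7 other settings of the fit. Without the replicate block, 0 genes passed in all, 0 of the lists and 0 of the 9 genes. DESeq2 with the block called 818 genes, 9 genes of the lists and 1 of the 9 genes, TPT1, against 1290, 5 and 0 with edgeR. Upper-quartile normalization called 805 higher and 360 lower, against 736 and 554 with TMM. Leaving out a library left the other pair alone, with values and no test, and EEF1D, EEF2 and PABPC1 then changed direction. Between numbers EEF1A1, EEF2 and EIF3F did. Between numbers, 5899 genes passed, against 3927 with at least 10 counts in every library and 3057 without the treatment term. EIF3H passed there with TMM and with pseudogene counts added, and 0 of the 9 genes passed with DESeq2, upper-quartile normalization, DESeq2 size factors, no count filter, at least 10 counts or no treatment term. A fold enrichment of at least 4 left 3 of the 6 m6A peaks. Depth of the peaks is unknown.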
